A study of Mus musculus with 11 samples.

Results

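Cultures of ER-Hoxa9-Lys-GFP cells with no or short loss of estradiol (E2) were compared with cultures that had gone longest without it, in 7 of the 11 libraries of the series. DNA methylation was read by reduced representation bisulfite sequencing (RRBS). It cuts genomic DNA with a restriction enzyme, so that CpG-rich fragments are sequenced, and converts unmethylated cytosines, which tells them from methylated ones. The 3 short libraries were 1 from cells kept in E2 throughout and 2 from cells that spent 24 h without E2 followed by 96 h with it. The 4 long libraries were 2 from cells that spent 72 h without E2 followed by 48 h with it and 2 from cells that spent 120 h without E2 and had no return. Pairs of libraries with 40 h and 56 h of withdrawal, returned to E2 for 80 h and 64 h, were kept out of every fit and served as a check. All groups were labelled as mouse C57BL/6 cells carrying the ER-Hoxa9 fusion and the Lys-GFP reporter, and cells without the fusion were not analysed here. A longer absence of E2 always went with a shorter return, so time without E2 and time back in it cannot be told apart. Continuous E2 has 1 library, and the labels do not give replicates as separate cultures. The p-values therefore rest on the scatter among these libraries, part of which may be technical. For a given tile, most of the scatter assumed was shared over all tiles (33.75 prior against 5 residual degrees of freedom).

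Hoxa9 is a homeobox transcription factor that keeps myeloid progenitors dividing and immature. Joined to the estrogen receptor's hormone-binding domain, it acts while estradiol is present, and its loss lets the cells mature toward phagocytes, which express lysozyme, the gene for which the reporter is named. Methyl groups on CpGs are copied by DNA methyltransferases at each division, can be oxidised by TET enzymes, and are typically sparse at CpG-rich gene starts and at enhancers in use. Methylation says nothing by itself of expression, which was not measured in these libraries.

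The unit of measurement was the 500-bp tile. Reads were summed over the CpGs of a tile that had a read in each of the 7 libraries, and a tile entered with at least 3 such CpGs and at least 30 CpG-read observations (each read counted at each CpG it covers) in every library. On chromosomes 1 to 19, 84307 tiles met this rule, and 83954 were tested after 353 with reads of a single kind were dropped. Library depth ranged from 12668839 to 46899896 observations, with continuous E2 the shallowest and 24 h replicate 2 and 120 h replicate 1 the deepest. The median tile held 62 observations in continuous E2 and 227 in 24 h replicate 2. Over tiles at 20 to 80%, the correlation between libraries was 0.833 to 0.926 within the short or long libraries and 0.842 to 0.931 between them, a description over tiles that share depth. Tiles just inside the limit, with 30 to 39 observations in the shallowest library, had a median difference of -0.33 points, and 1.502% of them differed by 10 points or more. For tiles just outside it, with 20 to 29, these values were -0.43 points and 2.42%. Tiles with exactly 3 CpGs had a median difference of -0.31 points and those with 2 had -0.42 points.

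Methylation moved at few places, and in the main fit more of them lost it than gained it. After the longest withdrawal 54 tiles were lower, 0.0643% of all tiles tested, and 20 were higher, 0.0238%. The lower tiles had a median difference of -19.8 percentage points, and the tile with the deepest fall, beside Dram1, dropped by 50.6 points. The higher tiles gained a median of 13.7 points, with the greatest gain, 30.05 points, downstream of the start of Abl1. The fit was a quasi-binomial logistic model with dispersions moderated by limma, a two-sided F test and Benjamini-Hochberg adjustment over all tiles, with a threshold of 0.05. The unadjusted p was under 0.05 at 5530 tiles, 6.59% of those tested. The 4 long libraries lay wholly below the 3 short ones at 50 of the 54 lower tiles and wholly above at 19 of the 20 higher ones, against 3.71% and 2.71% of all tiles, although the calls themselves favour tiles of that kind. Most of the tiles tested hardly moved, since 99.2% of them differed by under 10 points. These calls depended on the model: limma on logit values that ignore depth called 0 tiles, with 5176 at an unadjusted p under 0.05, and a model with 4 group means called 24 lower and 6 higher. Without 24 h replicate 2 the counts were 32 lower and 10 higher. Without 72 h replicate 1 they were 58 and 63, so the excess of losses did not hold without that library. A minimum of 60 observations left 11 and 6 of 41709 tiles tested.

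The called tiles differed from the tiles tested in their starting level, the mean of the 3 short libraries. Of the lower tiles 21 (38.9%) began at 20 to 80% methylation, against 12.1% of all tiles, and 30 (55.6%) began at 80% or more, against 63.5%. Of the higher tiles 13 (65.0%) began under 20%, against 24.4% of all tiles, 7 began at 20 to 80% and 0 above. A tile that begins near either end can move in a single direction, and these shares were not tested. CpG-poor tiles were common among the losses: 36 of the 54 lower tiles (66.7%) held 3 to 5 CpGs, against 43.1% of all tiles. Lower tiles with over 15 CpGs numbered 10 (18.5%, against 17.8% of all tiles) and had a median difference of -8.25 points. At 6 of the 10 the long libraries lay wholly below the short ones, against 3.71% of all tiles. The calls favour such tiles, so this count is a description.

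**Figure D1:**
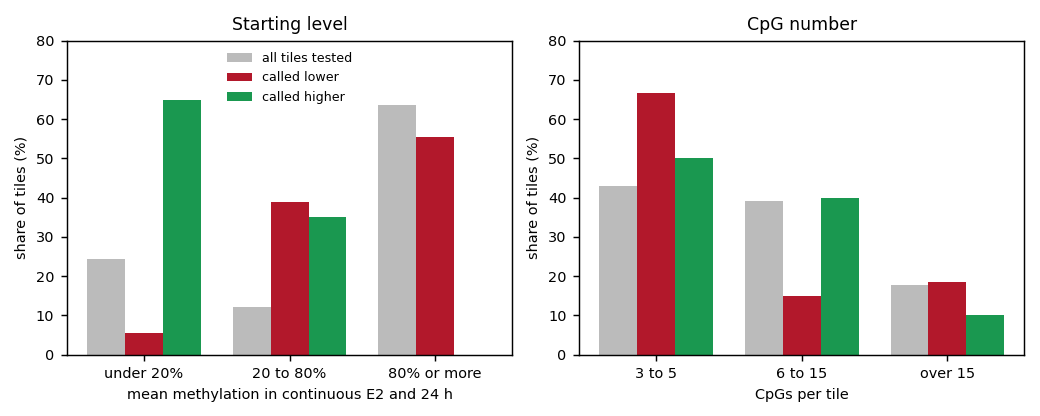
Share of tiles (%, vertical axes) by mean methylation in continuous E2 and 24 h (left) and by CpGs per tile (right), for all 83954 tiles tested, the 54 lower and the 20 higher ones. Gains began mostly under 20% methylation (65.0%) and losses mostly above 20% (5.56% of lower tiles began under it).

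**Figure D2:**
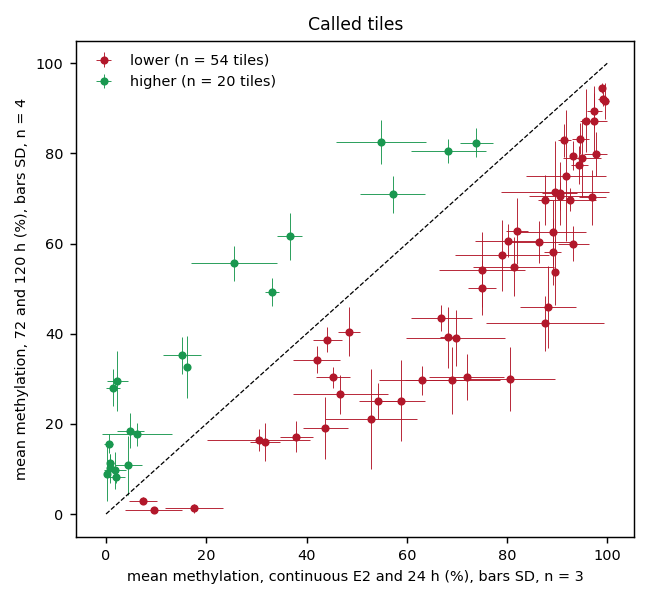
Mean methylation of each called tile in the 4 long libraries (vertical, %) against the 3 short ones (horizontal, %), with bars of 1 SD over libraries and the line of equal levels dashed. Lower tiles lie along the whole range of starting levels, and 13 of the 20 higher tiles start under 20%.

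Few of the changed tiles lay at gene starts. Starts were those of RefSeq promoter windows that could be matched to the deposited CpG lists by the spacing of their CpGs (6902 genes), so a nearer start may be missing, and distances run from the start to the middle of the tile in mm9. Such a start lay within 1 kb of 4 of the 54 lower tiles (7.41%), of 2 of the 20 higher tiles (10.0%) and of 15.4% of all tiles tested. Within 50 kb the shares were 42.6%, 65.0% and 42.5%. Called tiles reached into 3 placed promoter windows, and the CpGs read there, only part of those in each window, were near 0 or near 100% in every library. The windows of Cox6a1 and Peg12 are shown because called tiles reach into them, with CpGs in capitals, 5′ to 3′ on the minus strand of RefSeq's GRCm38.p6 (Cox6a1 chr5:115348909-115349208, Peg12 chr7:62464461-62464760).
Cox6a1: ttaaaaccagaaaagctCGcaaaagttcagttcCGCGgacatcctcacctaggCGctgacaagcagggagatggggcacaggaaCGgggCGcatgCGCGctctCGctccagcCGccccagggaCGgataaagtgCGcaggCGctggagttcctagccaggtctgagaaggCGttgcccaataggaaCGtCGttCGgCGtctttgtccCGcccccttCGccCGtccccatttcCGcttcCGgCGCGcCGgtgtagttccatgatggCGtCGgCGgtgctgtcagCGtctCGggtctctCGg
Peg12: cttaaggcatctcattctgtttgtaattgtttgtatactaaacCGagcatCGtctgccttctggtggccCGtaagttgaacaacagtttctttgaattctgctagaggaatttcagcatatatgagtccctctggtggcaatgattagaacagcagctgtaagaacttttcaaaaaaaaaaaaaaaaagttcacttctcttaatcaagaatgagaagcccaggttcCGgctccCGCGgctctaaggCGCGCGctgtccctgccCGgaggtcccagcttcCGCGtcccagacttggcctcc
The mm9 tile chr5:115798501-115799000 at Cox6a1, which encodes a subunit of cytochrome c oxidase, fell from 7.40% ± 2.74 (SD, n = 3) to 2.97% ± 0.80 (SD, n = 4), yet the 7 of 32 promoter CpGs that were read inside the tile stood at 0 to 0.304% in all 7 libraries. At Peg12, a paternally expressed imprinted gene, the tile chr7:69609001-69609500 rose from 73.9% ± 3.30 (SD, n = 3) to 82.4% ± 3.22 (SD, n = 4), and the 6 of 12 promoter CpGs read inside it stood at 98.2 to 100%. All 4 long libraries lay above the 3 short ones at this tile, by 4.11 points between the closest libraries. Of its 33 CpGs, 13 were higher in the pooled reads of the long libraries. The 40 h libraries stood at 82.2% and 84.2%, and the 56 h libraries at 71.0% and 74.0%. The remaining window, at Cdv3, held 5 CpGs at 0% in 6 libraries and at 5.62% in 72 h replicate 1.

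Among called tiles with a placed start within 100 kb, the greatest losses lay nearest to the starts of Dram1, Strn, Slc25a15 and Sp3, on different chromosomes. All 15 named lower tiles fell by 26.8 to 50.6 points, and 9 of them had a placed start within 100 kb. No overlap between short and long libraries was a condition for naming a tile. At chr10:87816501-87817000 in mm9, 3.1 kb downstream of the start of Dram1, a lysosomal membrane protein induced by p53 that takes part in autophagy, methylation was 88.4% in continuous E2 and 70.8% and 82.7% in the 24 h libraries. It was 38.6% and 33.0% in the 72 h libraries and 23.5% and 25.0% in the 120 h libraries. The means were 80.6% ± 8.95 (SD, n = 3) and 30.01% ± 7.06 (SD, n = 4), with an adjusted p of 6.05e-09 by the limma-moderated test. Limma on logit values gave this tile an adjusted p of 0.391, and the 30 named tiles 0.327 to 0.791. The lowest short library stood 32.3 points above the highest long one. Beside Strn, which encodes the scaffold protein striatin, the tile chr17:79162501-79163000 lay 26.8 kb upstream of the start. It stood at 94.6% in continuous E2, 86.0% and 83.9% at 24 h, 56.6% and 46.6% at 72 h, and 34.3% and 46.5% at 120 h. The difference was -42.2 points (adjusted p = 1.66e-06, limma-moderated), and the lowest short library stood 27.3 points above the highest long one.

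Slc25a15 encodes the mitochondrial ornithine carrier of the urea cycle. Its tile chr8:23501501-23502000, 7.0 kb downstream of the start, was at 80.6% in continuous E2, 67.9% and 67.5% at 24 h, 26.9% and 34.1% at 72 h, and 35.4% and 25.2% at 120 h. All long libraries lay between 25.2 and 35.4%, and the difference was -41.6 points (adjusted p = 1.85e-06, limma-moderated). The 72 h and 120 h ranges overlapped here, and no order of the 2 groups could be read. Sp3 encodes a transcription factor that binds GC boxes. The tile chr2:72875501-72876000, 57.2 kb upstream of its start, was at 80.0% in continuous E2, 64.9% and 62.4% at 24 h, 22.2% and 26.8% at 72 h, and 30.2% and 39.7% at 120 h. This was a fall of 39.4 points, with 120 h above 72 h in both libraries (adjusted p = 1.57e-06, limma-moderated). The smallest adjusted p of all, 9.83e-12, belonged to chr2:119122501-119123000, 8.3 kb downstream of the start of Vps18, a subunit of the complexes that tether vesicles to late endosomes and lysosomes. Methylation there was 90.1% in continuous E2, 93.3% and 96.3% at 24 h, 63.3% and 63.1% at 72 h, and 58.2% and 55.4% at 120 h. The 4 long libraries lay within 7.95 points of each other, and both 120 h libraries were below both 72 h libraries.

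Mcl1 encodes an anti-apoptotic member of the BCL2 family on which myeloid progenitors depend. The tile chr3:95455001-95455500, 7.4 kb upstream of its start, was at 58.5% in continuous E2, 53.1% and 51.2% at 24 h, 26.3% and 25.0% at 72 h, and 19.8% and 29.2% at 120 h. It fell by 29.2 points (adjusted p = 0.000231, limma-moderated), with 21.9 points between the closest libraries of the short and long sets. Other named losses near a placed start were at Sgpl1, the sphingosine-1-phosphate lyase (53.8 kb upstream, -33.7 points), Hip1r, an endocytic adaptor (53.1 kb downstream, -31.0 points) and Snx25, a sorting nexin (13.4 kb downstream, -29.1 points). At 6 further named tiles no placed start lay within 100 kb. The deepest fall of these was at chr2:91486001-91486500, from 90.9%, 97.4% and 74.5% in the short libraries to 36.5% and 39.7% at 72 h and 50.7% and 42.3% at 120 h. The tile chr4:59470501-59471000 had the tightest short libraries, 89.2%, 89.7% and 89.8%, and the long libraries stood at 48.6% and 64.4% at 72 h and 49.2% and 52.6% at 120 h. Of the 15 lower tiles the Snx25 tile lost its call without 24 h replicate 2 (adjusted p = 0.255, limma-moderated) while its difference stayed at -29.0 points.

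**Figure D3:**
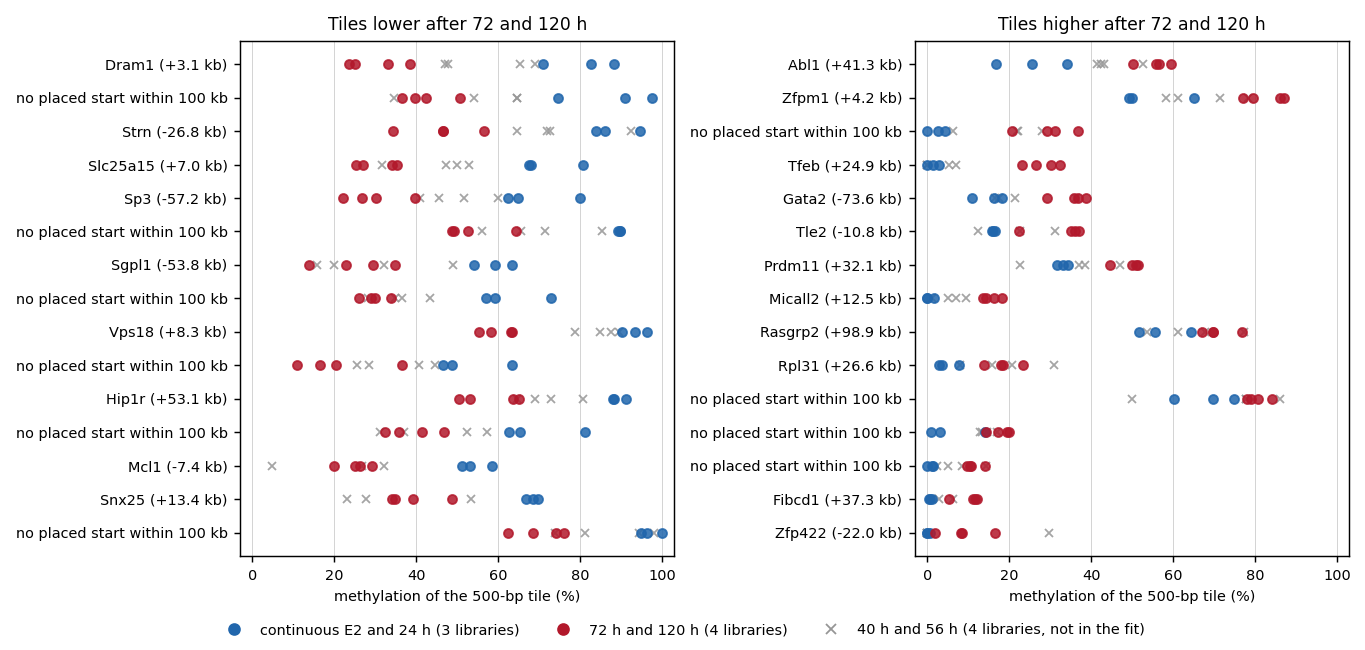
Methylation (%, horizontal) of the 15 lower and 15 higher named tiles, each labelled by its nearest placed gene start within 100 kb and the distance from it (positive downstream). Tiles with no such start are labelled so. Circles are the 7 libraries of the comparison and crosses the 4 libraries of 40 h and 56 h, which did not enter it (libraries with under 10 observations are left out). Within each tile all red circles lie on the same side of the blue ones, which was a condition for naming it.

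The 15 named higher tiles, also chosen for short and long libraries that do not overlap, gained 8.58 to 30.05 points. Among those with a placed start within 100 kb the greatest gains lay nearest to Abl1, Zfpm1 and Tfeb. The tile chr2:31656501-31657000 lay 41.3 kb downstream of the start of Abl1, a tyrosine kinase gene fused to Bcr in chronic myeloid leukaemia, and 44.8 kb downstream of that of Fibcd1. It was at 16.9% in continuous E2, 25.6% and 34.1% at 24 h, 50.3% and 55.9% at 72 h, and 59.6% and 56.5% at 120 h. The difference was 30.05 points (adjusted p = 0.000112, limma-moderated), and the adjoining tile rose by 25.0 points. A further tile, chr2:31664001-31664500, at 0.497 to 1.23% in the short libraries, reached 5.31% and 11.3% at 72 h and 12.2% and 11.6% at 120 h. No other called tiles adjoined each other.

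Zfpm1 encodes FOG1, a cofactor of GATA factors in erythroid and megakaryocyte cells. The tile chr8:124810001-124810500, 4.2 kb downstream of its start, was at 49.3% in continuous E2, 50% and 65.2% at 24 h, 87.1% and 86.3% at 72 h, and 77.1% and 79.7% at 120 h. It gained 27.7 points (adjusted p = 0.00636, limma-moderated), and both 72 h libraries lay above both 120 h libraries. Tfeb encodes a transcription factor of lysosomal and autophagy genes. The tile chr17:47899501-47900000, 24.9 kb downstream of its start, was at 0% in continuous E2, 2.86% and 1.37% at 24 h, 30.2% and 23.1% at 72 h, and 32.3% and 26.7% at 120 h (adjusted p = 1.57e-06, limma-moderated). A count of 0 of 38 observations in continuous E2 allows a level of up to 7.89%, for counting error only and if observations were independent. Reads that cover several CpGs are counted at each, so the bound is too low. The short libraries could not be told apart there. A gain of like size was seen at chr2:34476001-34476500, with no placed start within 100 kb, from 0%, 2.53% and 4.29% in the short libraries to 36.9% and 29.4% at 72 h and 20.7% and 31.2% at 120 h. Gata2 encodes a transcription factor of blood stem and progenitor cells. The tile chr6:88070001-88070500, 73.6 kb upstream of its start, was at 18.2% in continuous E2, 16.2% and 10.9% at 24 h, 35.9% and 29.2% at 72 h, and 38.8% and 36.8% at 120 h. This rise of 20.1 points rested on 33 observations in continuous E2 (adjusted p = 0.023, limma-moderated) and lost its call without 24 h replicate 2 (adjusted p = 0.691) and without 120 h replicate 1 (adjusted p = 0.128). Smaller gains lay near Tle2, a Groucho-family corepressor (10.8 kb upstream, 16.4 points), Prdm11 (32.1 kb downstream, 16.2 points) and Micall2 (12.5 kb downstream, 15.1 points). Of the 15 higher tiles 9 lost their call without 24 h replicate 2, among them those near Gata2, Tle2 and Prdm11, with adjusted p of up to 0.818 by the same test.

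Within a tile the change was often uneven from CpG to CpG. Over the 506 CpGs of the lower tiles 365 (72.1%) were lower in the pooled reads of the long libraries, and at 34 of the 54 tiles all CpGs were. Over the 147 CpGs of the higher tiles 109 (74.2%) were higher, and at 12 of the 20 tiles all were. Beside Vps18, the CpG at position 119122667 of chromosome 2 went from 96.8% of 94 short reads to 9.87% of 223 long reads, while the first CpG of the tile, 162 bp away, went from 96.6 to 94.1%. In the Dram1 tile the first 2 CpGs, 15 bp apart, fell from 84.7 to 29.6% and from 82.1 to 19.4%, and the third CpG, 162 bp from the first, stood at 61.1 and 62.3%. In the chr2:34476001-34476500 tile the rise was greatest at 18 bp from its first CpG (8.11 to 61.7%) and at 55 bp (4.05 to 54.8%), and at 70 bp the level went from 1.39 to 6.15%. In the Tfeb tile CpGs 4 bp apart went from 1.28 to 24.0% and from 2.63 to 51.0%. Reads of nearby CpGs come from the same molecules, so these CpGs are not independent.

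When the most changed CpG was left out, the library means of 14 of the 15 named lower tiles and 9 of the 15 named higher tiles differed by 10 points or more. The gains at chr2:31664001-31664500 (9.29 points) and chr6:116600501-116601000 (8.58 points) were smaller than that from the start. The exception among the named losses was the Hip1r tile, where the difference became -1.65 points. Its 3 CpGs went from 85.6 to 35.7%, from 100% to 88.9% and from 87.2 to 98.8%. Of all 54 lower tiles 37 differed by 10 points or more, against 43 before. Of these 54, 8 were under 5 points, and 53 kept their direction. For the 20 higher tiles these counts were 10 against 14, 1 and 19. Neighbouring tiles were counted only if uncalled, so a neighbour that itself was called, as at the Abl1 tile, was left out. Of 21 uncalled tiles that started within 500 bp of a lower tile, 11 (52.4%) were lower, against 53.9% of all tiles tested. Their median difference was -0.04 points. Of 5 such neighbours of higher tiles 4 were higher, with a median of 0.44 points.

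**Figure D4:**
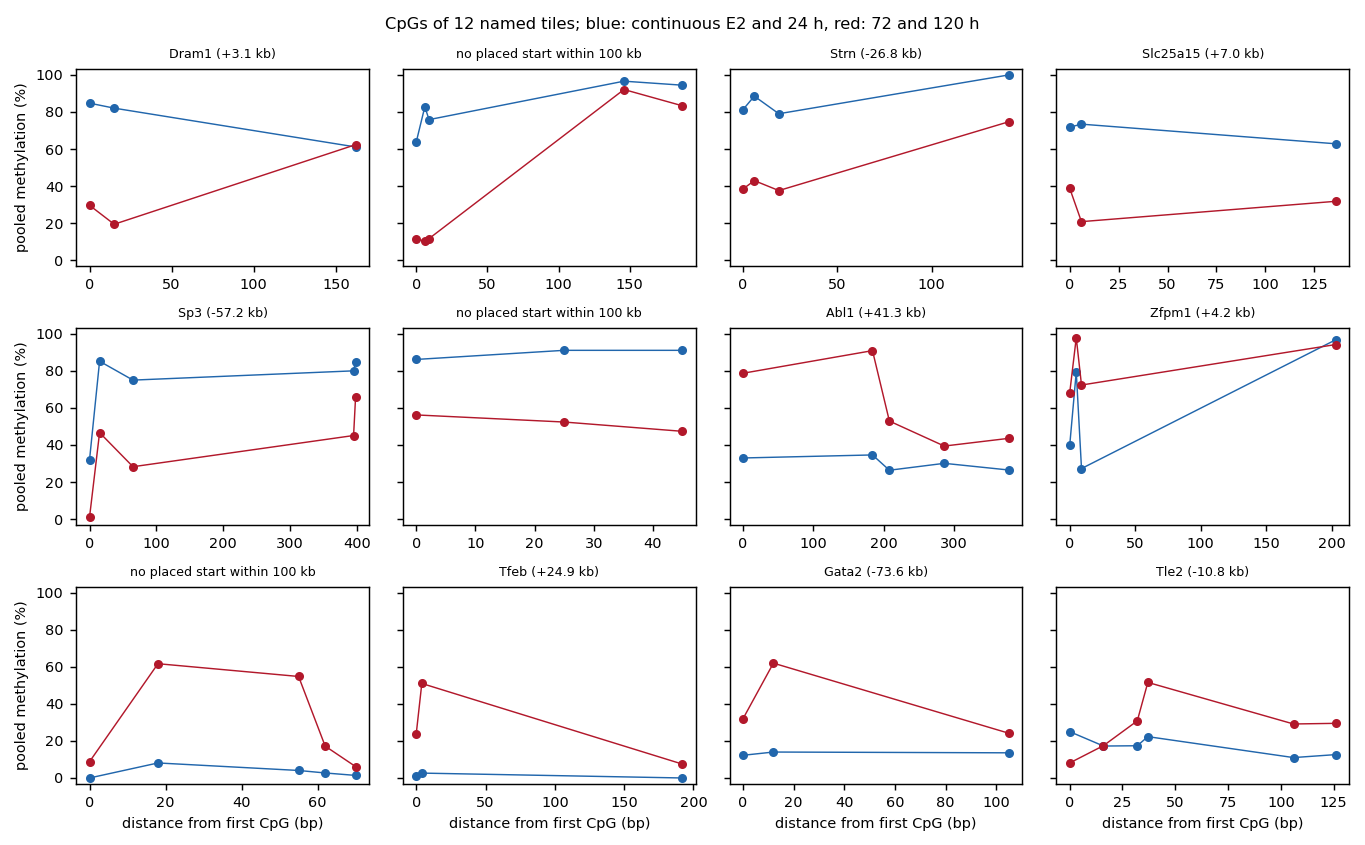
Methylation of single CpGs (%, vertical, reads pooled over libraries) against distance from the first CpG (bp) in the 6 named tiles of greatest loss and the 6 named tiles of greatest gain, in the order of the size of the difference. Blue is continuous E2 and 24 h, red is 72 h and 120 h, and lines join neighbouring CpGs. The third CpG of the Dram1 tile stood at 61.1 and 62.3% while the other 2 fell.

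Libraries of 40 h and 56 h, which took no part in choosing the tiles, lay between the short and long levels on average over the called tiles. Averaged over the lower tiles, methylation was 76.3% in continuous E2, 71.9% and 71.4% at 24 h, 51.1% and 53.9% at 72 h, and 50.6% and 51.8% at 120 h, values that the choice of tiles set apart. It was 61.6% and 64.6% at 40 h and 57.2% and 57.1% at 56 h. Averaged over the higher tiles it was 19.3% in continuous E2, 21.6% and 20.03% at 24 h, 24.9% and 26.9% at 40 h, 28.0% and 32.0% at 56 h, 36.0% and 36.6% at 72 h, and 36.3% and 34.97% at 120 h. Tiles are not independent trials, so the counts that follow are a description. With at least 10 observations per library, the level lay nearer to the long than to the short mean at 27 of 52 and 28 of 54 lower tiles in the 40 h libraries and at 37 of 54 and 34 of 53 in the 56 h libraries. The 40 h shares, 51.9% in both, were close to the 51.3% and 50.3% of all tested tiles with a negative difference. The 56 h shares, 68.5% and 64.2%, stood beside 50.9% and 51.7%. Uncalled tiles lower by 10 points or more gave 55.3% and 48.5% at 40 h, and 49.6% and 50.6% at 56 h. For the higher tiles these counts were 6 and 8 of 20 at 40 h and 12 and 13 of 20 at 56 h. The 40 h shares, 30% and 40%, were below the 50.2% and 51.2% of all tested tiles with a positive difference. The 56 h shares, 60% and 65%, stood beside 50.5% and 49.7%. Uncalled tiles higher by 10 points or more gave 61.3% and 59.0% at 40 h, and 65.2% and 61.9% at 56 h. The 56 h mean was further toward the long level than the 40 h mean at 36 of 51 lower tiles (70.6%) and 14 of 20 higher tiles (70.0%). Among uncalled tiles that differed by 10 points or more the shares were 48.1% for lower and 48.9% for higher ones. The mean of the 4 check libraries was past the short mean toward the long level at 47 of 51 lower tiles (92.2%) and 20 of 20 higher tiles, against 85.2% and 94.8% of those uncalled tiles, and 67.4% and 65.7% of all tiles of each sign. The check libraries were the shallowest of the series, with 8234933 to 10317379 observations, and the part of depth in these counts was not tested.

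**Figure D5:**
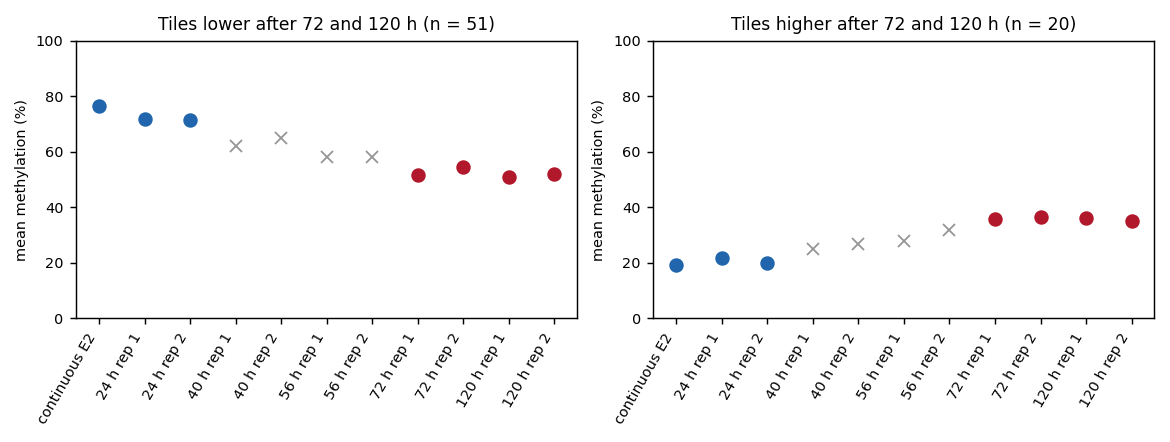
Mean methylation (%, vertical) over the lower tiles (left) and the higher tiles (right) that held at least 10 observations in each of the 11 libraries, 1 point per library in order of hours without E2. Blue and red points chose the tiles, and the grey crosses of 40 h and 56 h did not. The crosses lie between the blue and the red points in both panels.

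Differences between the groups pooled on each side were tested with 2 libraries against 2 and 2 against 1, so a missed threshold does not show that they were alike. Over all 83954 tiles 0 passed the adjusted threshold for 120 h against 72 h, with 4624 (5.51%) at an unadjusted p under 0.05, and 0 passed for 24 h against continuous E2, with 3673 (4.38%), by the limma-moderated quasi-binomial test. Among the 54 lower tiles the unadjusted p for 120 h against 72 h was under 0.05 at 13 (24.1%, against 5.51% of all tiles). At 120 h 32 were lower, against 48.95% of all tiles. For 24 h against continuous E2 it was under 0.05 at 10 (18.5%, against 4.38% of all tiles), and 39 were lower at 24 h, against 50.2% of all tiles. Among the 20 higher tiles these counts were 3 and 1, and 11 were lower at 120 h than at 72 h, against 48.95% of all tiles. The tiles were called from these same libraries, so the counts over called tiles are a description.

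Mean methylation over whole classes of tiles, each tile weighted equally, differed by under 1 point between the short and long libraries. Tiles over 80% methylated had a mean of 94.2% ± 0.107 (SD, n = 3) in the short and 93.8% ± 0.139 (SD, n = 4) in the long libraries, with no overlap. Tiles of 3 to 5 CpGs were lower by 0.34 points and those of 6 to 15 CpGs by 0.26 points, also with no overlap. The exact two-sided permutation p was 0.0571 for each of these classes, the smallest that 35 splits allow, and 0.114 after adjustment over 6 classes. For tiles at 20 to 80%, under 20% and over 15 CpGs the short and long libraries overlapped, with exact permutation p of 0.114 to 0.171. Weighting by reads moved these differences to -0.83, -1.08 and -1.17 points for tiles of 3 to 5, 6 to 15 and over 15 CpGs, against -0.34, -0.26 and -0.096 points. It also changed the sign for tiles under 20% (0.085 to -0.0036 points) and at 20 to 80% (-0.51 to 0.12 points). Reads pooled over each whole library were 58.7% methylated in 72 h replicate 1 and 60.9 to 62.8% in the other 6 libraries.

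Gene lists chosen for this cell system held no called tile within 5 kb of a placed start, against 0.0881% of all tiles. For transcription factors of myeloid differentiation, such as Cebpb, Klf4 and Runx1, 10 of 26 genes could be placed, and 4 of their 52 tiles (7.69%) had an unadjusted p under 0.05, against 6.59% of all tiles. The widest difference was -7.27 points at Egr2, a zinc-finger factor of macrophage differentiation (adjusted p = 0.609, limma-moderated). For progenitor genes linked to Hoxa9, such as Myb, Kit and Bcl2, 8 of 30 genes were placed, and 2 of 47 tiles (4.26%) passed the unadjusted threshold. Gata2 had the widest difference of these, 9.38 points near its start (adjusted p = 0.74). Of 21 tiles at 8 of 14 genes of the methylation machinery, 1 passed, at Tet3, a methylcytosine oxidase (-6.03 points, adjusted p = 0.533). Tiles at Dnmt3a, a methyltransferase that sets new methylation, differed by at most 1.98 points. For lymphoid, erythroid and megakaryocyte genes 3 of 24 could be placed and 2 of 27 tiles passed, with 8.90 points at Gata3 (adjusted p = 0.443). None of the 30 granule and lysozyme genes could be placed, so the locus behind the reporter was not assessed.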

How the data were processed

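RRBS files of 11 libraries were used, 7 in the comparison and 4 as a check. Each deposited file lists, per CpG, the methylated and total reads, written as a pair of counts in a text column, and a score of 0 to 1000 that, in the deposited files, equalled 1000 times the methylated share to within 0.5 in 100.0% of lines. Coordinates are in mm9, per the submitters' processing notes, and the aligner, caller and duplicate handling are not given in the sources used here. Analyses used the read counts, not the score.

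Reads were summed in 500-bp tiles, fitted per tile with a quasi-binomial logistic model of 2 means, with dispersions moderated by limma 3.58.1 (R 4.3.3; 33.75 prior and 5 residual degrees of freedom, dispersion not below 1), and adjusted by Benjamini-Hochberg; the code was tested on simulated data. Differences are those of unweighted library means, long minus short. Named tiles are up to 15 each way with the largest difference among called tiles whose short and long libraries do not overlap, adjoining tiles merged. Other analyses used Python 3.11.15 and numpy 2.4.6. Of 32851 RefSeq promoter windows (GRCm38.p6, 250 bases before to 50 after a start), 7729 were placed on the mm9 CpG lists by the spacing of at least 6 CpGs, and no coordinate was converted. Gene lists were matched through these windows, not through an mm9 annotation, which was not used here. Amplified reads carried no molecular identifiers and can repeat a molecule, so depth bounds cover counting error only and treat observations as independent. The libraries, tiles and gene lists were chosen with earlier results of these data known.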

Additional observations from a re-analysis of the deposited data

Results flagged for a closer look

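At chr2:31664001-31664500, 72 h replicate 1 stood at 5.305%, far below the 11.3 to 12.2% of the other long libraries. At chr10:81027001-81027500, beside Tle2, 120 h replicate 2 stood at 22.414%, far below the 35.1 to 37.0% of the other long libraries. Both gaps exceed Dixon's critical value at 95% for 4 samples, and chance alone marks about 1 in 20 groups. On chromosome X, outside the comparison, 3 of 4079 tiles were lower in the long libraries and 0 were higher by the same limma-moderated test, with 264 (6.47%) at an unadjusted p under 0.05.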

How the results depend on the processing

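The number of called tiles depended strongly on the model and on depth. No named tile turned its direction in the alternatives that kept 500-bp tiles. This was largely fixed in advance, since named tiles were chosen to have short and long libraries that do not overlap. Limma on logit values called 0 lower and 0 higher tiles and 0 of the 30 named ones, with 5176 tiles at an unadjusted p under 0.05. The model with 4 group means called 24 lower and 6 higher, 30 in all. A minimum of 60 observations left 11 and 6 (17 in all, 8 of the 10 named tiles tested), one of 100 observations 1 and 1 (2 in all, 1 named tile tested and called), and 5 CpGs per tile 12 and 9 (21 in all, 10 of 13 named). Single CpGs with at least 10 reads gave 87 and 31 (118 in all) of 293189. Leaving out each library gave 32 to 75 lower, 10 to 63 higher and 42 to 121 tiles in all, with 24 h replicate 2 giving the lowest counts. Differences between replicates 1 and 2 had correlations of 0.0011 to 0.0159 between groups over all tiles. Counting error in each tile lowers such correlations, so they cannot show whether the replicate numbers pair the samples. With the replicate block over the 6 numbered libraries 1 lower and 0 higher tiles were called, 1 in all, which was 1 of the 30 named, with 4307 tiles at an unadjusted p under 0.05, against 57 and 23 with no block, while the prior degrees of freedom of the dispersion went from 41.53 to 7.30. With class means weighted by reads, the difference became -0.0036 points under 20% and 0.12 at 20 to 80%, both of the other sign, and -0.83, -1.08 and -1.17 points for tiles of 3 to 5, 6 to 15 and over 15 CpGs. The cause was not tested. In added alternatives chosen after seeing the data, tiles of 15 or fewer CpGs gave 53 and 30 and moderation within CpG classes 51 and 23. Depth limits the named tiles, of which 10 of 30 had 60 observations in every library.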

Other observations

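Some called tiles beyond the named ones lay near genes of interest for myeloid cells, chosen here after their values were seen. Beside Ets2, an ETS-family transcription factor, the tile chr16:95930001-95930500, 6.2 kb downstream of the start, went from 86.3% ± 6.13 (SD, n = 3) to 60.3% ± 4.66 (SD, n = 4). Beside Srf, the serum response factor, chr17:46723501-46724000, 30.6 kb upstream, went from 92.6% ± 5.15 (SD, n = 3) to 69.7% ± 2.54 (SD, n = 4). A tile that lost nearly all of its methylation was chr13:44628001-44628500, with no placed start within 100 kb, from 17.6% ± 5.76 (SD, n = 3) to 1.25% ± 1.07 (SD, n = 4).

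CpG-dense tiles at the starts of Ttc39b and Phactr2 were called lower although their short and long libraries overlapped. At Ttc39b the 72 h libraries differed, 56.6% in replicate 1 and 83.9% in replicate 2, and at Phactr2 they stood at 81.4% and 97.7%.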
